A study of Mus musculus with 36 samples.

Results

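The sisters described here were the 16 half-embryo blastocysts cultured in KSOM(aa), both members of embryos 1 to 8, out of 36 half-embryos in the series. In each of the 8 pairs the sister with the higher log2 signal of Nanog was set against its sister with the lower signal, so the members were selected on Nanog itself, and Nanog is described but not tested. All half-embryos came from zygotes of B6C3F1 x CD1 matings after stimulation with PMSG and hCG. The zygotes were cultured in KSOM(aa) to the 2-cell stage, when the sister blastomeres were separated. Each was grown alone for 72 more hours in its own well, to a blastocyst of about 40 to 50 cells by the sample labels. The paper's own counts of stained twin blastocysts in KSOM(aa) were lower than that. The whole of each blastocyst was lysed and hybridized to 1 Mouse Transcriptome Array (MTA-1_0), which measures each gene or transcript as a transcript cluster on the log2 scale. The comparison asks which genes of the epiblast, the primitive endoderm and the trophectoderm were higher or lower in the sister with more Nanog. The 20 half-embryos of embryos 9 to 18, of which 1 sister grew in GM501 and the other in SAGE 1-step, served as a set that had no part in the order.

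A mouse blastocyst holds 3 cell types. The trophectoderm forms the outer epithelium, runs on CDX2, EOMES and GATA3 and is rich in keratins, while the inner cell mass sorts into epiblast, which gives the body of the mouse, and primitive endoderm, which gives the yolk sac lining. NANOG is the transcription factor that marks and maintains epiblast cells, GATA6 the one that opens the primitive endoderm programme, and each restrains the other. Epiblast cells secrete FGF4, and its signal through FGFR1 and FGFR2 and the ERK kinases steers neighbouring cells to primitive endoderm, whose cells then make GATA4, SOX17, PDGFRA and the laminins of a basement membrane.

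Nanog was measured by 1 transcript cluster of 74 probes (chromosome 6 of mm10, 122707489 to 122714633). Its log2 signal was 15.32 against 15.16 in embryo 1, 14.32 against 13.61 in embryo 2, 13.90 against 12.72 in embryo 3 and 13.07 against 11.14 in embryo 4. It was 13.32 against 12.85 in embryo 5, 13.53 against 12.79 in embryo 6, 13.99 against 12.91 in embryo 7 and 13.95 against 13.62 in embryo 8. The gap between sisters thus ran from 0.16 in embryo 1 and 0.33 in embryo 8, where the order was closest to a tie, to 1.93 in embryo 4, a 3.81-fold difference. Over the 8 pairs it was 0.83 ± 0.57 (SD). The order did not follow the labels of the sisters, since the half-embryo labelled a was higher in 4 pairs and b in 4. The order holds within pairs only. Both sisters of embryo 1 were above every other half-embryo, and 3 of the 8 Nanog-lower sisters exceeded the lowest Nanog-higher one. Of 21549 other detected transcript clusters with a symbol, 8.11% had a larger mean absolute difference between sisters than Nanog.

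**Figure D1:**
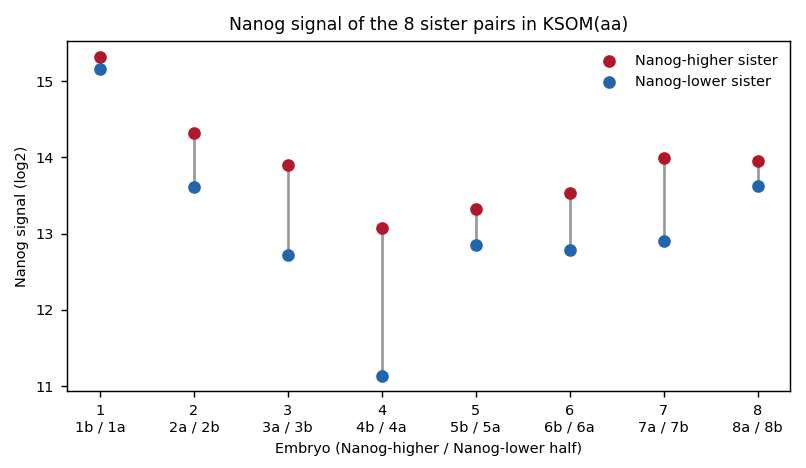
Log2 signal of Nanog (vertical axis) in the 16 half-embryos, by embryo (horizontal axis), with the Nanog-higher sister in red, the Nanog-lower sister in blue and a grey line between them. The gap is 0.16 in embryo 1 and 1.93 in embryo 4, and the levels of different embryos overlap.

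The sequence around the start of Nanog is shown because 2 of the genes described next, Pou5f1 and Sox2, encode factors known to bind it together. It covers 250 bases before to 50 bases after a RefSeq start site, on the plus strand of GRCm38.p6 (chr6:122707239-122707538), with capitals from the first base of a match to TTTGCAT, the core of the octamer that OCT4 reads, to the last base of a match to ACAATG, a SOX-type element, including the single T that lies between them.
Nanog: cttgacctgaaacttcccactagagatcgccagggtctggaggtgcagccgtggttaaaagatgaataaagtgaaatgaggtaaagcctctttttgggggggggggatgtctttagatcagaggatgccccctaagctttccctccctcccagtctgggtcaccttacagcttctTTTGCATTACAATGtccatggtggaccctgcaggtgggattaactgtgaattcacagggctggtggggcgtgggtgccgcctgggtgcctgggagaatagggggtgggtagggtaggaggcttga
On either strand, TTTGCAT occurs in 4.6% of 32851 RefSeq promoter windows of this length, ACAATG in 12.6% and both in 0.8%. The arrays measured the signals of Nanog, Pou5f1 and Sox2, not binding at this site.

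Array-wide measures did not separate the sisters beyond the spread between pairs. The median log2 signal was 5.08 ± 0.08 in the Nanog-higher and 5.04 ± 0.04 in the Nanog-lower sisters (SD, n = 8 each, exact sign-flip permutation test, two-sided, p = 0.25). The share of transcript clusters above the detection level, set on each array at the 90th percentile of its odorant and pheromone receptor genes, was 53.57% ± 1.67 and 53.96% ± 1.49 (SD, exact p = 0.375). Ribosomal RNA of the small subunit (Rn18s) was 17.95 ± 0.18 and 17.87 ± 0.24 (SD, exact p = 0.148), and the mean of 12 reference genes was 14.66 ± 0.10 in both (exact p = 0.984). With 8 pairs the smallest two-sided p of this test is 0.0078. The number of arrays limits the precision of all values below. Of the defining cumulus and granulosa markers, Amh, Foxl2, Fshr and Cyp19a1 were below the detection level in all 16 half-embryos. Of the whole list of 15 such genes 5 were detected, and its mean log2 signal was 4.63 in both groups of sisters (exact p = 0.953).

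No lineage gene, and no other transcript cluster, passed the test between Nanog-higher and Nanog-lower sisters. In a paired fit with limma, 0 of 40159 transcript clusters passed an adjusted p under 0.05 (0%, smallest adjusted p = 0.885), and a paired test on each transcript cluster's own variance, without limma's shared prior, also called 0 after the same adjustment. At an unadjusted p under 0.05, limma counted 2204 (5.49%), of which 1412 (3.52%) were higher and 792 (1.97%) lower in the Nanog-higher sister, and the test on its own variance 2216. This balance depended on the scaling: after centring each array on its median, 922 were higher and 1401 lower, and after quantile normalization 975 and 1238. Of the 103 lineage genes measured beside Nanog, 93 were detected. At the unadjusted threshold 0 of the 103 were higher and 3 lower. This count rested on embryo 7: without it 1 was higher and 15 were lower, against 1408 and 789 of all 40159, still with 0 past the adjusted threshold. Leaving out any other pair gave 0 or 1 higher and 2 to 4 lower. After centring 7 were lower. Their median log2 difference, Nanog-higher minus Nanog-lower, was -0.10 with 28 positive values, against -0.01 over detected transcript clusters, of which 48.7% were positive, and 0.02 and 56.6% over all tested. None of the 103 had the same sign in all 8 pairs, as 329 of 40159 transcript clusters did (0.819%). A whole blastocyst was measured as 1 sample, so fewer cells of a type and less RNA per cell cannot be told apart in any of these values.

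**Figure D2:**
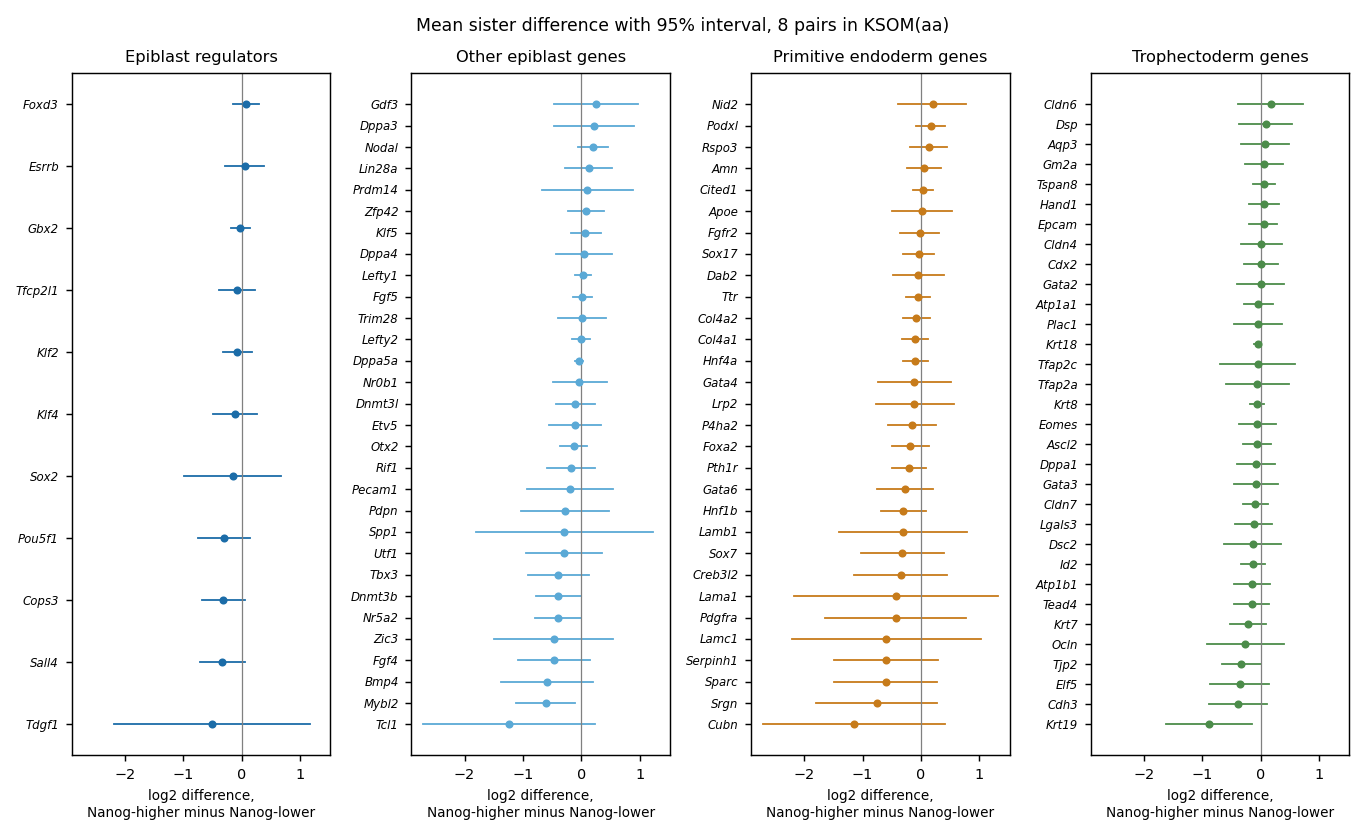
Mean log2 difference of each lineage gene, Nanog-higher minus Nanog-lower sister, over 8 pairs in KSOM(aa) (points), with the 95% interval of the paired limma fit (bars), in 4 panels by gene list. Most points lie left of 0, from -1.24 (Tcl1) to 0.26 (Gdf3), and 100 of the 103 intervals include 0.

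Among the 11 other epiblast regulators that the study names, none passed the test. Their median log2 difference was -0.11, and 2 of 11 were positive. Without embryo 2 the median was 0.00 with 6 of 11 positive, and without embryo 3 it was -0.23. Sox2 encodes the partner of OCT4 in pluripotent cells (chromosome 3 of mm10, 34650005 to 34652461). Its log2 signal ran from 5.91 over a median of 7.08 to 8.62 in the Nanog-higher sisters and from 6.67 over 7.28 to 8.19 in the Nanog-lower sisters. The sisters' ranges overlapped, and Sox2 was higher with Nanog in 2 pairs, by 1.95 in embryo 3 and 1.17 in embryo 7, and lower in the other 6, with a difference of -1.93 in embryo 2. The mean difference was -0.15 (95% interval -0.98 to 0.68, adjusted p = 0.965, limma). Pou5f1, which encodes OCT4, ran from 8.61 over 9.36 to 9.87 and from 8.74 over 9.71 to 10.14. Its mean difference was -0.30 (interval -0.75 to 0.15, adjusted p = 0.897, limma), and embryo 2 held the widest one, with a signal of 8.61 in the Nanog-higher and 10.14 in the Nanog-lower sister.

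Tdgf1, which encodes the NODAL co-receptor Cripto, had the widest sister differences of the regulators. Its log2 signal was 5.37 in the Nanog-higher sister of embryo 2 and 9.76 in the other, a 21-fold difference, while in embryo 3 it was 10.68 in the Nanog-higher sister and 6.42 in the other. The mean over 8 pairs was -0.50 (interval -2.18 to 1.18, adjusted p = 0.937, limma). Cops3, a subunit gene of the COP9 signalosome that the study links to the epiblast, was 12.44 ± 0.34 in the Nanog-higher and 12.75 ± 0.27 in the Nanog-lower sisters (SD, n = 8), lower in 5 of 8 pairs (mean difference -0.31, interval -0.68 to 0.06, adjusted p = 0.885, limma). Sall4, a zinc finger gene of pluripotent cells, had a mean difference of -0.34. The remaining regulators were closer to 0: Klf4 at -0.11, Klf2 and Tfcp2l1 at -0.07, Gbx2 at -0.02, Esrrb at 0.05 and Foxd3 at 0.08. Gbx2 was above the detection level in 0 of 16 half-embryos and Esrrb in 8.

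The other 30 epiblast genes had a median difference of -0.11, with 11 positive. The median was -0.02 without embryo 2, and without embryo 7 the count at the unadjusted threshold went from 0 higher and 2 lower to 1 higher and 5 lower. Leaving out any other pair gave 0 or 1 higher and 1 or 2 lower. Fgf4, the ligand that epiblast cells send to primitive endoderm precursors, was low, above the detection level in 12 of 16 half-embryos. It was higher with Nanog by 1.36 in embryo 3 and by 0.05 in embryo 1 and lower in 6 pairs, down to -1.61 in embryo 6 (mean -0.47, interval -1.09 to 0.15, adjusted p = 0.893, limma). Gdf3, which encodes a NODAL-related ligand, had the highest mean of this list, 0.26 (interval -0.46 to 0.97), with 4 of 8 pairs positive. Next were Dppa3, which encodes the Stella protein of early embryos and germ cells, at 0.22, and Nodal, the ligand itself, at 0.20, each positive in 6 pairs. Prdm14, a repressor gene of naive cells, was at 0.10, and Zfp42, which encodes REX1, was at 0.08. Prdm14 was above the detection level in 9 of 16 half-embryos and Nodal in 13.

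At the other end of the list stood Tcl1, an AKT coactivator gene, at -1.24 (interval -2.71 to 0.23). Its difference was -4.04 in embryo 8, -3.66 in embryo 2, -2.50 in embryo 6 and -2.21 in embryo 5, but 1.70 in embryo 7. Bmp4, which encodes a signalling ligand, was at -0.59. Mybl2, which encodes a MYB factor of cell cycle genes, and Dnmt3b, a de novo DNA methyltransferase gene, were each lower in 7 of 8 pairs. The difference was -0.61 for Mybl2 (standard error 0.22, p = 0.0221 unadjusted, adjusted p = 0.885, limma) and -0.39 for Dnmt3b (standard error 0.17, p = 0.0475 unadjusted, adjusted p = 0.885, limma). Neither passed the test over all transcript clusters.

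Of the primitive endoderm genes none passed the test either. The median difference of the 30 was -0.14, 6 were positive, and 0 reached the unadjusted threshold in either direction. Without embryo 7 the median was -0.20 and 6 of the 30 were lower at that threshold, against 789 of all 40159 transcript clusters. Leaving out any other pair gave 0 of the 30 in either direction, and without embryo 2 the median was -0.07. Gata6 ran from 10.15 over 11.75 to 12.51 in the Nanog-higher and from 11.54 over 12.07 to 12.64 in the Nanog-lower sisters. It was lower with Nanog in 4 pairs, with -1.39 in embryo 6 and -0.87 in embryo 2, and higher in the other 4, by at most 0.50 (mean -0.28, interval -0.76 to 0.21, adjusted p = 0.904, limma). Gata4, a later factor of the same lineage, was at -0.11 with 4 pairs in each direction, and was above the detection level in 10 of 16 half-embryos. Sox17, an endoderm factor gene, was above the detection level in 1 of 16 half-embryos and Sox7 in 7, so their differences of -0.04 and -0.32 rest on signals near the background. The FGF receptor gene Fgfr2 was at -0.02 and Dab2, which encodes an endocytic adaptor, at -0.05.

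The matrix and receptor genes of the primitive endoderm varied far more between sisters than their regulators. Lama1, which encodes the laminin alpha chain of the first basement membranes, ran from 5.50 over 9.00 to 11.35 in the Nanog-higher and from 7.11 over 9.95 to 11.44 in the Nanog-lower sisters. In embryo 2 it was 5.50 with more Nanog and 10.14 with less, a 24.9-fold difference, whereas in embryo 7 it was 10.65 with more Nanog and 7.26 with less. Cubn, which encodes the endocytic receptor cubilin, differed by -4.02 in embryo 4, -3.43 in embryo 2 and -2.92 in embryo 8, but by 2.07 in embryo 7 and 1.59 in embryo 1. Its mean difference, -1.14 (interval -2.70 to 0.41, adjusted p = 0.893, limma), was the lowest of the list. Pdgfra, the PDGF receptor of this lineage, was at -0.43 (interval -1.64 to 0.78), Srgn, a proteoglycan core protein gene, at -0.76 and Sparc, a matrix glycoprotein gene, at -0.60. The 3 highest means were those of Nid2 (0.20), which encodes a basement membrane nidogen, Podxl (0.17), a sialomucin gene, and Rspo3 (0.13), a Wnt agonist gene above the detection level in 0 of 16 half-embryos.

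Of the 4 lineage lists, the trophectoderm genes had the smallest sister differences. Over the 32 genes the median of the mean absolute sister difference was 0.36, equal to that of all detected transcript clusters, against 0.54 for primitive endoderm genes, 0.52 for the other epiblast genes and 0.40 for the epiblast regulators. These are descriptions without a test. Cdx2 ran from 11.99 over 12.18 to 12.77 in the Nanog-higher and from 11.87 over 12.27 to 12.79 in the Nanog-lower sisters, with an interval of the mean difference from -0.29 to 0.29. Eomes and Tfap2c, further trophoblast factors, were at -0.06 and -0.05 and Gata3 at -0.08. The keratin genes Krt8 and Krt18 were at -0.06 and -0.05, each lower with Nanog in 6 of 8 pairs. Krt18 varied less between sisters than 99.9% of detected transcript clusters. Its signals, 17.90 to 18.29, were near the highest of the series, 19.17, and how far signals of this height can differ was not tested. Dppa1 was at -0.08. The highest means were 0.17 for the claudin gene Cldn6, 0.09 for Dsp, which encodes desmoplakin, and 0.08 for the water channel gene Aqp3.

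Krt19, another keratin gene of simple epithelia, was the trophectoderm gene of the lowest mean difference, -0.89 (standard error 0.33, interval -1.62 to -0.15, p = 0.023 unadjusted, adjusted p = 0.885, limma). It ran from 6.28 over 7.47 to 9.26 in the Nanog-higher and from 6.64 over 8.57 to 10.42 in the Nanog-lower sisters and was lower with Nanog in 6 of 8 pairs, with -2.69 in embryo 3. The cadherin gene Cdh3 was at -0.39 and the trophoblast factor gene Elf5 at -0.36. Neither reached the unadjusted threshold. Without embryo 7, 3 of the 32 trophectoderm genes were lower at that threshold, against 0 to 2 without any other pair. Without embryo 2 the median went from -0.06 to -0.12.

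Read pair by pair, the inner cell mass genes differed in groups, and the direction of a group was not the same in all pairs. In embryo 2 the Nanog-higher sister was lower in 11 of 11 epiblast regulators, 25 of 30 other epiblast genes and 23 of 30 primitive endoderm genes. In embryo 8 it was lower in 8 of 11, 22 of 30 and 23 of 30. In both embryos the same sister, the one with more Nanog, thus had the lower signal of Tdgf1 (-4.39 and -2.01), Spp1, which encodes osteopontin (-4.34 and -2.98), Lama1 (-4.64 and -2.33), Lamc1, a laminin gamma chain gene (-3.77 and -4.02), and Pdgfra (-3.38 and -2.71). Spp1 and Lamc1 were chosen after their values were seen. Embryo 7 went the other way: the Nanog-higher sister was higher in 20 of 30 other epiblast and 24 of 30 primitive endoderm genes, Lama1 by 3.39 and Lamc1 by 3.14. The epiblast regulators were divided in this embryo, with 6 higher, 5 lower and a median of 0.01.

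The 3 pairs with a Nanog gap above 1 differed among themselves. In embryo 4, which had the widest gap, 26 of 30 primitive endoderm genes were lower in the Nanog-higher sister, with a median of -0.55, while 16 of 30 other epiblast genes and 12087 of 21549 detected transcript clusters were higher. In embryo 3 the Nanog-higher sister was higher in 8 of 11 regulators and 22 of 30 other epiblast genes and lower in 18 of 30 primitive endoderm and 25 of 32 trophectoderm genes. In embryo 7, as above, most of the other epiblast and primitive endoderm genes were higher, but only 6 of 11 regulators. Embryo 5 again differed, with 25 of 30 primitive endoderm genes higher in the sister with more Nanog. Of the 21549 detected transcript clusters, 10940 were higher in the Nanog-higher sister in embryo 2, 10989 in embryo 3, 9946 in embryo 5, 9312 in embryo 7 and 10765 in embryo 8.

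**Figure D3:**
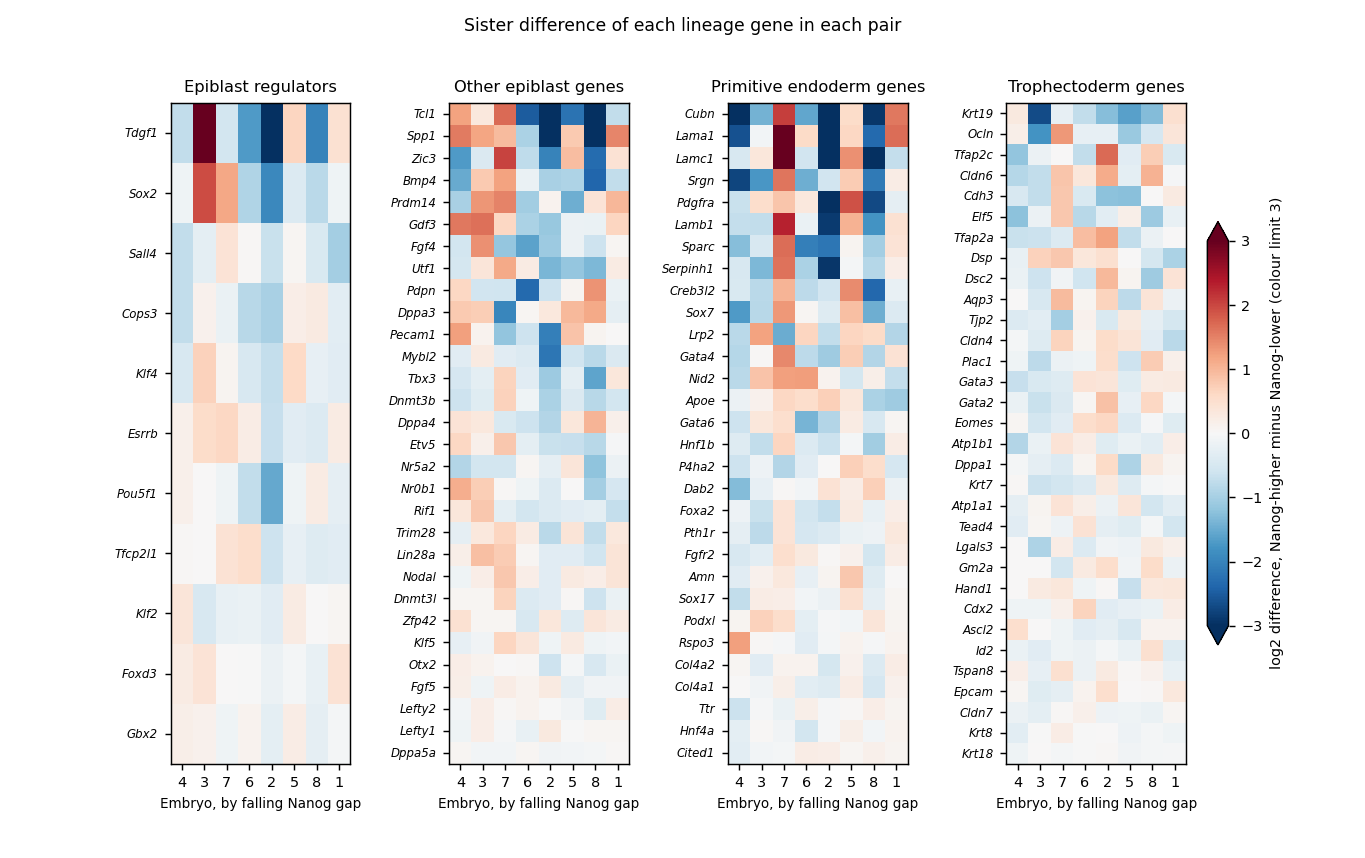
Log2 difference of each lineage gene (rows), Nanog-higher minus Nanog-lower sister, in each embryo (columns, from the widest Nanog gap in embryo 4 to the narrowest in embryo 1), with red for higher and blue for lower and colours limited at 3. Genes are ordered by mean absolute difference. The columns of embryos 2 and 8 are mostly blue in both epiblast and primitive endoderm panels. That of embryo 7 is mostly red for the other epiblast and primitive endoderm genes and mixed for the epiblast regulators. The trophectoderm panel is pale.

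Of the FGF and ERK pathway, 21 genes had a median difference of -0.10 and 4 were positive. At the unadjusted threshold, where all 40159 transcript clusters gave 3.52% higher and 1.97% lower, 0 were higher and 1 was lower. That gene was Spry2, a feedback inhibitor that ERK signalling induces (chromosome 14 of mm10, 105891947 to 105896819). It ran from 8.79 over 10.05 to 10.87 in the Nanog-higher and from 9.92 over 10.93 to 11.42 in the Nanog-lower sisters. It was lower with Nanog in 7 of 8 pairs, from -1.79 in embryo 6 to -0.01 in embryo 5, and 0.39 higher in embryo 7 (mean -0.81, standard error 0.24, p = 0.00726 unadjusted, adjusted p = 0.885, limma). Other targets and inhibitors of the pathway did not reach that threshold. Spry1 was at -0.14, Dusp6, an ERK phosphatase gene, at -0.48 with a standard error of 0.40, Etv5, a factor gene induced by FGF, at -0.11, and Spred2, another inhibitor gene, at 0.40. The receptor gene Fgfr1 was at -0.54 (interval -1.20 to 0.12).

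LIF and STAT3 genes, 11 in all, had a median of -0.18 with 3 positive and 0 at the unadjusted threshold. Il6st, which encodes the shared receptor subunit gp130, was at -0.87 (interval -1.76 to 0.01, adjusted p = 0.885, limma), and Stat3 was at 0.23. The medians of 14 Nodal pathway genes and 17 Hippo pathway genes were 0.01 and 0.05, and 0 of either list reached the unadjusted threshold.

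Outside the lineage and signalling lists, Trp53, which encodes the p53 tumour suppressor, was the one gene of the apoptosis list at the unadjusted threshold. It ran from 6.98 over 7.78 to 9.27 in the Nanog-higher and from 7.62 over 8.46 to 9.42 in the Nanog-lower sisters, and it was lower with Nanog in 8 of 8 pairs, from -0.95 to -0.09 (mean -0.49, standard error 0.14, exact p = 0.00781, adjusted p = 0.885, limma). Of all 40159 transcript clusters, 329 (0.819%) had the same sign in all 8 pairs, which always gives the smallest p of the exact sign-flip test, 0.0078. Of 25 cell cycle genes, 2 were lower at the unadjusted threshold, Ccne2 (-0.68), which encodes a cyclin of DNA replication entry, and Cdk1 (-0.31), the mitotic kinase gene. Over all 40159 transcript clusters 5.49% were under this threshold, 3.52% higher and 1.97% lower. Of 20 maternal oocyte transcripts 1 was higher, Nlrp5 (0.49), which encodes the MATER protein. The oocyte-specific Zp1, Gdf9 and Bmp15 were above the detection level in at most 1 half-embryo, but Zp3 in 4 of 16 and Zp2 in 7. Zp2 was higher with Nanog in 5 of 8 pairs, by 3.90 in embryo 7 and 3.84 in embryo 8. It was lower in 3, with -1.85 in embryo 4 (mean 0.78, interval -0.58 to 2.14, adjusted p = 0.903, limma). The mean log2 signal of the oocyte list ranged from 5.09 to 5.46 over the 16 half-embryos and differed by 0.031 (exact p = 0.406). Vim, the vimentin gene, stood in the cumulus and granulosa list at -0.93 (standard error 0.31, p = 0.0132 unadjusted, adjusted p = 0.885, limma), while 13 of the 15 genes of that list were positive. Among the reference genes Actb was 0.14 higher.

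Genes were then ranked over detected transcript clusters with 1 symbol, without receptor genes, predicted and clone-named genes, histone genes and small RNA genes. The ones of smallest p in each direction did not pass either, and no lineage gene was among them. The 5 of smallest p that were higher with Nanog were Ate1, an arginyltransferase gene (0.99, standard error 0.23, 7 of 8 pairs), Slc27a4, a fatty acid transporter gene (0.94, standard error 0.21, 8 of 8), Nepro (0.50), Chst11, a chondroitin sulfotransferase gene (1.03), and Khdc1a (0.60). Khdc1a belongs to a family of similar genes, and how its probes separate them was not tested. The 5 that were lower were Jph1, a junctophilin gene, Bloc1s3, Pigm, a mannosyltransferase gene of GPI anchors, Atp10d and Naprt. Bloc1s3 and Naprt were above the detection level in 11 of 16 half-embryos and Atp10d in 13, so their differences rest on signals near the background. Jph1 ran from 4.78 over 5.24 to 5.61 in the Nanog-higher and from 5.57 over 5.87 to 6.58 in the Nanog-lower sisters, lower in 8 of 8 pairs (mean -0.70, standard error 0.12, p = 1.8e-04 unadjusted, adjusted p = 0.885, limma). Jph1 was above the detection level in 15 of 16 half-embryos, and its Nanog-higher signals also lay near the detection levels of these arrays, 4.73 to 5.17. Of all 40159 transcript clusters, 0.819% had the same sign in all 8 pairs. All 10 had an adjusted p of 0.885.

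The likeness to Nanog, over the same restricted set of detected genes, was the correlation of the signed sister differences through 0 over 8 pairs. It is given as a description without a test. It was highest for Gprin1 (0.96), Adh6-ps1 (0.92), Tmem80 (0.90), Igkv8-16 (0.89) and Paqr6 (0.87), and lowest for Pum3 (-0.96), Nfat5 (-0.95), Faim (-0.92), Calcoco1 (-0.91) and Car5b (-0.90). None of these is a lineage gene of the lists. Igkv8-16 was above the detection level in 10 of 16 half-embryos and Nfat5 in 11, so their values rest on signals near the background. Adh6-ps1 (4.79 to 5.65) and Paqr6 (5.02 to 5.63) also lay close to the detection levels, 4.73 to 5.17. The closest follower, Gprin1, differed by only 0.43 in embryo 4, where Nanog differed by 1.93, and the sets of sister differences share the arrays on which Nanog was read.

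In the sisters of embryos 9 to 18 the change of each gene per unit of log2 Nanog was fitted as a slope, with the medium as a second term. There the Nanog gap ran from 0.30 over a median of 1.08 to 3.83. With all 10 pairs, 2715 of 40159 transcript clusters passed (6.76%, limma, adjusted p under 0.05), 609 rising and 2106 falling with Nanog. Among those detected in KSOM(aa), to which 93 of the 103 lineage genes belong, 603 rose and 703 fell. Without embryo 16, whose SAGE 1-step sister had an array median of 5.36 against 4.87 to 5.01 in the other half-embryos of embryos 15 to 18, 0 passed (0%), and 4736 (11.8%) were under an unadjusted p of 0.05. Of the 103 lineage genes 5 passed with all 10 pairs and all 5 rose with Nanog: Sox2 (slope 0.42, adjusted p = 0.0398, limma), Mybl2 (0.59), Trim28 (0.43), Rif1 (0.39) and Lrp2 (0.45), the last a primitive endoderm receptor gene. Without embryo 16 none of the 103 passed. The slope of Sox2 was then 0.51 (standard error 0.15, adjusted p = 0.266, limma), and that of Mybl2 0.43. In KSOM(aa) the slope of Sox2 was 0.10 (standard error 0.38) and that of Mybl2 -0.41 (standard error 0.27).

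The slopes of KSOM(aa) and of embryos 9 to 18 were then compared directly. They differed for 185 of 40159 transcript clusters (0.461%, limma, adjusted p under 0.05) and for 27 without embryo 16, and no gene of the 14 lists was among them in either fit. The smallest adjusted p of a listed gene was 0.061. For Sox2 the difference was -0.32 (standard error 0.36, adjusted p = 0.647, limma) and for Fgfr1 -1.08 (standard error 0.28, adjusted p = 0.0706, limma). The signs of the slopes in KSOM(aa) and in embryos 9 to 18 without embryo 16 matched for 49 of the 103 lineage genes. The scan names in the file header put the KSOM(aa) arrays in a set of their own, and the effects of set and medium on these slopes cannot be told apart.

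**Figure D4:**
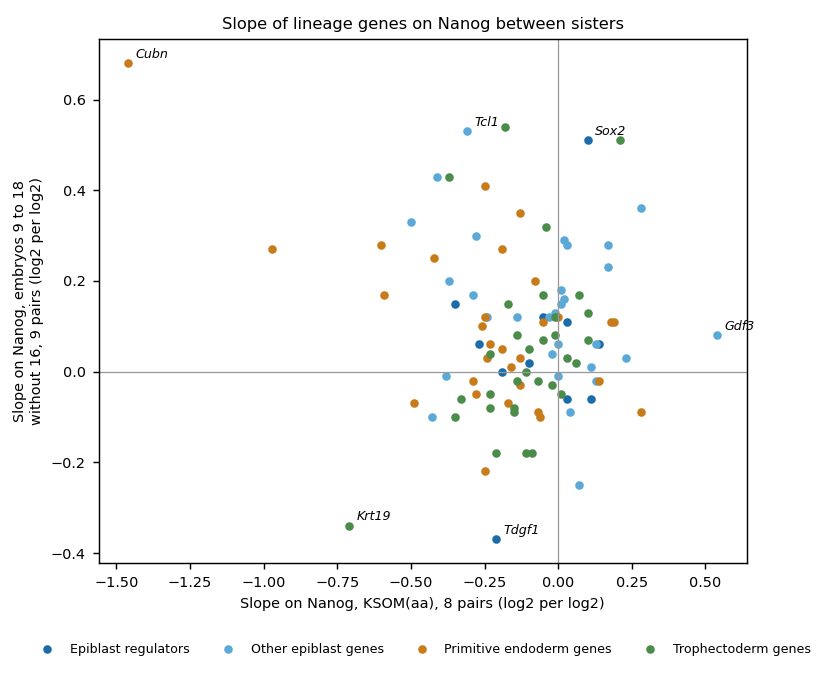
Slope of each of 103 lineage genes on the sister difference of Nanog (log2 per log2), in KSOM(aa) over 8 pairs (horizontal axis) and in embryos 9 to 18 without embryo 16 over 9 pairs (vertical axis), coloured by list. Signs match for 49 of 103 genes, and Sox2 lies at 0.10 and 0.51 and Cubn at -1.46 and 0.68.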

How the data were processed

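Total RNA of single blastocysts was amplified with the WT Pico kit. The authors made the deposited log2 signals with the Affymetrix Expression Console (Signal Space Transformation with robust multiarray averaging, mm10 annotation). Which arrays were normalized together is not given in the sources used here. The column of 1a holds log2 signals as well, but a single deposited cell in it is no log2 value and only fits the unit score. The transcript cluster of that cell was dropped, and all other values of 1a were used as log2 signals. Both deposited tables hold equal values, with 65956 transcript clusters, 40160 of them with a symbol. Detected meant above the 90th percentile of 1527 receptor transcript clusters in at least 50% of KSOM(aa) arrays.
Sisters were compared with limma 3.58.1 (R 4.3.3; embryo as a block, trended prior variance, two-sided, Benjamini-Hochberg over 40159 transcript clusters without Nanog, threshold 0.05), and single values with an exact sign-flip test in Python 3.11.15. The fit was tested on simulated data. Sisters of an embryo are paired by the labels, and their deviations from the means of the Nanog-higher and Nanog-lower sisters correlated at 0.11 to 0.34. Where several transcript clusters carry a gene, that of highest mean in KSOM(aa) was used.
The genes named are a set of lineage genes, the 3 highest and 3 lowest means of each lineage list, the 5 of smallest p in each direction, and the 5 most and least like Nanog. Those ranked by p or likeness came from the restricted set of detected genes described above. Listed genes under an unadjusted p of 0.05, and a few pathway genes, were named after their values were seen. The members and the lists were chosen with earlier results of these data known. The 14 lists also covered 2-cell stage transcripts, whose 13 measured genes had a median of 0.12 with 0 under the unadjusted threshold. Alternatives were no replicate block, other scalings, other sets of transcript clusters, the slope on Nanog, array weights, a paired test on each transcript cluster's own variance (the methods name an analysis of variance) and leaving out pairs.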

Additional observations from a re-analysis of the deposited data

Results flagged for a closer look

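In 6 of 65 genes examined, 1 pair lay far from the other 7 in its sister difference, Nanog-higher minus Nanog-lower, by Dixon's criterion. Chance flags about 1 in 20 groups. Dab2 was lowest in embryo 4 (-1.31, next -0.24), Dppa3 in embryo 7 (-1.95, next -0.27) and Mybl2 in embryo 2 (-2.16, next -0.82). Jph1 was lowest in embryo 5 (-1.45), and Khdc1a in embryo 7 (-0.16), the pair in which its direction turned. Rspo3 was highest in embryo 4 (1.23, next 0.11), at signals below the detection level.

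The slope on Nanog differed between KSOM(aa) and embryos 9 to 18 for 185 transcript clusters (limma, adjusted p under 0.05), and for 27 without embryo 16. Among them were Adh6-ps1 (difference 0.49, adjusted p = 0.0445, limma), Faim (-1.16, adjusted p = 0.0391, limma) and Calcoco1 (-0.72, adjusted p = 0.0391, limma), all named for their likeness to Nanog in KSOM(aa), so these values are no independent support. Without embryo 16 their adjusted p was 0.157, 0.113 and 0.139.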

How the results depend on the processing

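The count of transcript clusters that differ between Nanog-higher and Nanog-lower sisters was 0 in every alternative run: no replicate block, quantile normalization, centring on the median, scaling to Actb, Gapdh and Hprt, restriction to detected transcript clusters, inclusion of those with no symbol, the slope on the size of the Nanog gap, leaving out the 2 pairs of smallest gap or each pair in turn, array weights and a paired test on each transcript cluster's own variance. At an unadjusted p under 0.01 that test counted 360 and limma 350. The count at an unadjusted p under 0.05, 2204 in the paired fit, was 1412 with no replicate block, 1203 over detected transcript clusters only and 3563 over all transcript clusters, where fewer or more were tested, and 1985 to 2555 without 1 pair. For 65 genes under 15 of these alternatives each, no adjusted p was under 0.70, and no gene whose mean difference exceeded 1 standard error turned its sign. The median over the other epiblast genes was 0.01 as a slope, against -0.11 in the order. A Nanog transcript cluster of next highest mean could not be tried, since 1 was found.

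In embryos 9 to 18 the 2715 calls became 0 without embryo 16, 0 in embryos 9 to 14, 3 in embryos 15 to 18, 1213 after centring (855 rising, 358 falling), 334 after quantile normalization (123 rising, 211 falling) and 1135 over detected transcript clusters. Leaving out 1 pair gave 0 to 4656, with 304 without embryo 9 and 1644 without embryo 18. The 185 differences of slopes became 7 after centring, 33 over detected transcript clusters and 27 without embryo 16. Embryo 16 was left out because earlier results of these data had shown it to stand apart, and the other omissions in embryos 9 to 18, and the alternatives for the unadjusted count, were added after the data were seen. The cause of these changes was not tested.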
